A study of Mus musculus with 80 samples.

Results

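The genes described here are the 7 mouse genes that encode the subunits of AMP-activated kinase (AMPK): Prkaa1, Prkaa2, Prkab1, Prkab2, Prkag1, Prkag2 and Prkag3. They were taken by symbol from a count table of 56941 Ensembl genes, and all 7 were among the 15879 genes that passed a filter on low counts. The table covers 80 RNA sequencing libraries of left ventricular tissue from C57Bl/6J mice, 10 in each of 8 groups. In each sex the groups are the Western diet with the sham field at 0 cGy (called Western), the normal diet with the field labelled Mix at 50 cGy (mixed field), gamma radiation at 100 cGy on normal diet (gamma), and the normal diet with the sham field at 0 cGy (sham). Doses are absorbed doses in centigray (cGy). The labels give no age or time after exposure, do not name the components of the mixed field, and do not say that the libraries came from separate animals, so each p-value is set by the spread among libraries, some of which may be technical. The 2 irradiated groups of a sex and its Western group share 1 set of sham libraries.

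AMPK is a kinase of 3 parts that reads the energy state of the cell. A catalytic alpha subunit carries the kinase, a beta subunit holds the complex together and binds glycogen, and a gamma subunit binds AMP, ADP and ATP, so that a fall in ATP switches the kinase on. In heart muscle active AMPK is known to raise glucose uptake and fatty acid oxidation and to slow protein and lipid synthesis, and human variants in PRKAG2 cause a cardiomyopathy with stored glycogen. Each subunit has more than 1 gene, and the genes differ in where they are used: the alpha2 and beta2 forms are prominent in striated muscle, and the gamma3 form is best known from fast skeletal muscle.

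On the GRCm39 genome, the catalytic alpha1 gene Prkaa1 (ENSMUSG00000050697) lies on chromosome 15 from 5173186 to 5211750 on the plus strand. The catalytic alpha2 gene Prkaa2 (ENSMUSG00000028518) lies on chromosome 4 from 104886845 to 104967102 on the minus strand. The scaffold genes are Prkab1 (beta1, ENSMUSG00000029513, chromosome 5, 116151645 to 116162567, minus) and Prkab2 (beta2, ENSMUSG00000038205, chromosome 3, 97565509 to 97581146, plus). The nucleotide-binding genes are Prkag1 (gamma1, ENSMUSG00000067713, chromosome 15, 98710177 to 98729434, minus), Prkag2 (gamma2, ENSMUSG00000028944, chromosome 5, 25067728 to 25306439, minus) and Prkag3 (gamma3, ENSMUSG00000006542, chromosome 1, 74775818 to 74788380, minus). Some share exonic bases with a gene on the other strand: Prkag3 shares 1088 bp with Cyp27a1, a mitochondrial sterol hydroxylase, and Prkag1 shares 1511 bp with the noncoding B130046B21Rik. Prkag2 shares 1081 bp with the noncoding 2900005J15Rik, 795 bp with Prkag2os2 and 288 bp with Prkag2os1, and Prkaa1 shares 242 bp with Gm15938. Whether the counting used strand is not given in the sources used here. Reads from such stretches therefore cannot be assigned with certainty.

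The promoter windows of Prkag3, Prkaa2 and Prkag2 are shown because these genes are the 3 called in at least 1 comparison below. They come from RefSeq on GRCm38.p6 and are written in the gene's direction with 250 bases before and 50 bases after the start. Capitals mark the GC box GGGCGG and the E-box CANNTG, each searched on both strands.
Prkag3, chr1:74748906-74749205, minus strand: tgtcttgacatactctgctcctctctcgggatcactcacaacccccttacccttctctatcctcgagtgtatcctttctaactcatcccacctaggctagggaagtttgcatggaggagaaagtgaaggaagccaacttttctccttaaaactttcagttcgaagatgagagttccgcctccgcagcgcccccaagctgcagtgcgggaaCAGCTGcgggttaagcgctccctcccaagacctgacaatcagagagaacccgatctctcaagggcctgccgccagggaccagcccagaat
Prkaa2, chr4:105109849-105110148, minus strand: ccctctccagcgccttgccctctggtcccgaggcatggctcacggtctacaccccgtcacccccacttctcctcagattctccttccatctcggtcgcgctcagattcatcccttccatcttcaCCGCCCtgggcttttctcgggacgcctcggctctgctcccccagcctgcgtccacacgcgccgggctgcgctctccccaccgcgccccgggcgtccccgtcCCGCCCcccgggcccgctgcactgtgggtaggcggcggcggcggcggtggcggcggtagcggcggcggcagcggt
Prkag2 window 1, chr5:25100593-25100892, minus strand: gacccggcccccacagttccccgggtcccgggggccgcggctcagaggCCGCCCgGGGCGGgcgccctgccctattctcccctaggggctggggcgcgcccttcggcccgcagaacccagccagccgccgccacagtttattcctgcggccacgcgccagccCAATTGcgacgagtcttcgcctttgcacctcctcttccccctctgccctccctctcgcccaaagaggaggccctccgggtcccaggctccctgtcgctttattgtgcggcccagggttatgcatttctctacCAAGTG
Prkag2 window 2, chr5:24995704-24996003, minus strand: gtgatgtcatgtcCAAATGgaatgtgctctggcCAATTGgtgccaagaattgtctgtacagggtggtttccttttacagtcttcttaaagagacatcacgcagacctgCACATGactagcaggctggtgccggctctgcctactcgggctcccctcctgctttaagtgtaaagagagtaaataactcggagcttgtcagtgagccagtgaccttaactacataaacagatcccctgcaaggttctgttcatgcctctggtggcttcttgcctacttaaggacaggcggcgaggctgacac
Prkag2 window 3, chr5:24908460-24908759, minus strand: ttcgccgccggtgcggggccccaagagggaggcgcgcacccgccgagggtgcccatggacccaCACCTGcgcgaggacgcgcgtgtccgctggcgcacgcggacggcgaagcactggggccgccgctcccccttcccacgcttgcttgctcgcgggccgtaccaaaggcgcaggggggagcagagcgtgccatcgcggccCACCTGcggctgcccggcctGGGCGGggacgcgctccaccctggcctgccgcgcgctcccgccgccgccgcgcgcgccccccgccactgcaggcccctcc

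The Prkag3 window had no GC box and 1 E-box, CAGCTG, which starts 40 bases before the start of the gene. Prkaa2 had 2 GC boxes, starting 126 and 25 bases before its start, and no E-box. The windows of Prkag2, numbered in the order shown, had 2, 0 and 1 GC boxes and 2, 3 and 2 E-boxes. The windows of the uncalled genes held 0 GC boxes (Prkab1), 2 (Prkag1) and 5 each (Prkaa1 and Prkab2). Of all 32851 promoter windows in the table, 35.7% held the GC box and 72.3% held CANNTG. All 7 genes matched the table, with 9 windows, 3 of them for Prkag2. GC content was 54% for Prkag3, 72.7% for Prkaa2 and 69.7%, 50.3% and 79.3% for the windows of Prkag2, against a median of 52.7% over all windows. In none of the 9 windows did TATAAA or CACGTG occur, which were present in 13.6% and 7.15% of all windows. These matches describe letters in the windows and are no evidence of binding.

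Total counts per library ran from 13484776 to 22143504. Of the ventricular markers, Myl2, the regulatory light chain of the ventricle, had in every library at least 3570 CPM (the count scaled to a common library size, with TMM factors). Transcripts of the atrial light chain Myl7 exceeded 10 CPM in 20 libraries, all male, among them replicates 1 to 5 of male Western, male gamma and male sham. The share of counts on Rn18s-rs5, a ribosomal RNA locus, also differed between libraries, as did many genes between libraries with title numbers 21-40 (replicates 6 to 10 of each group) and 1-20 (replicates 1 to 5). What distinguishes the 2 runs of numbers is not stated in the labels. Female gamma replicate 7 had 0.129 CPM of Xist and 0 CPM of Ddx3y, so it matched neither sex. Without that library 1 call on a subunit gene was gained in the comparisons below, that of Prkaa1 in the difference between the sexes by title numbers (edgeR adjusted p = 0.0488), and none was lost.

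All 7 subunit genes were detected in every library, from a lowest count of 37 for Prkag3 to a highest of 3152 for Prkaa2. Over the 80 libraries the alpha subunit genes averaged 17.99 ± 2.22 CPM (SD) for Prkaa1 and 116 ± 31.01 CPM for Prkaa2. The beta subunit genes averaged 35.1 ± 4.29 CPM for Prkab1 and 60.5 ± 10.1 CPM for Prkab2. The gamma subunit genes averaged 15.3 ± 2.85 CPM for Prkag1, 29.04 ± 3.89 CPM for Prkag2 and 4.91 ± 1.39 CPM for Prkag3. In relative terms Prkag3 and Prkaa2 varied most between libraries, with coefficients of variation of 28.4% and 26.7%, and the other genes had 12.2 to 18.7%.

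**Figure D1:**
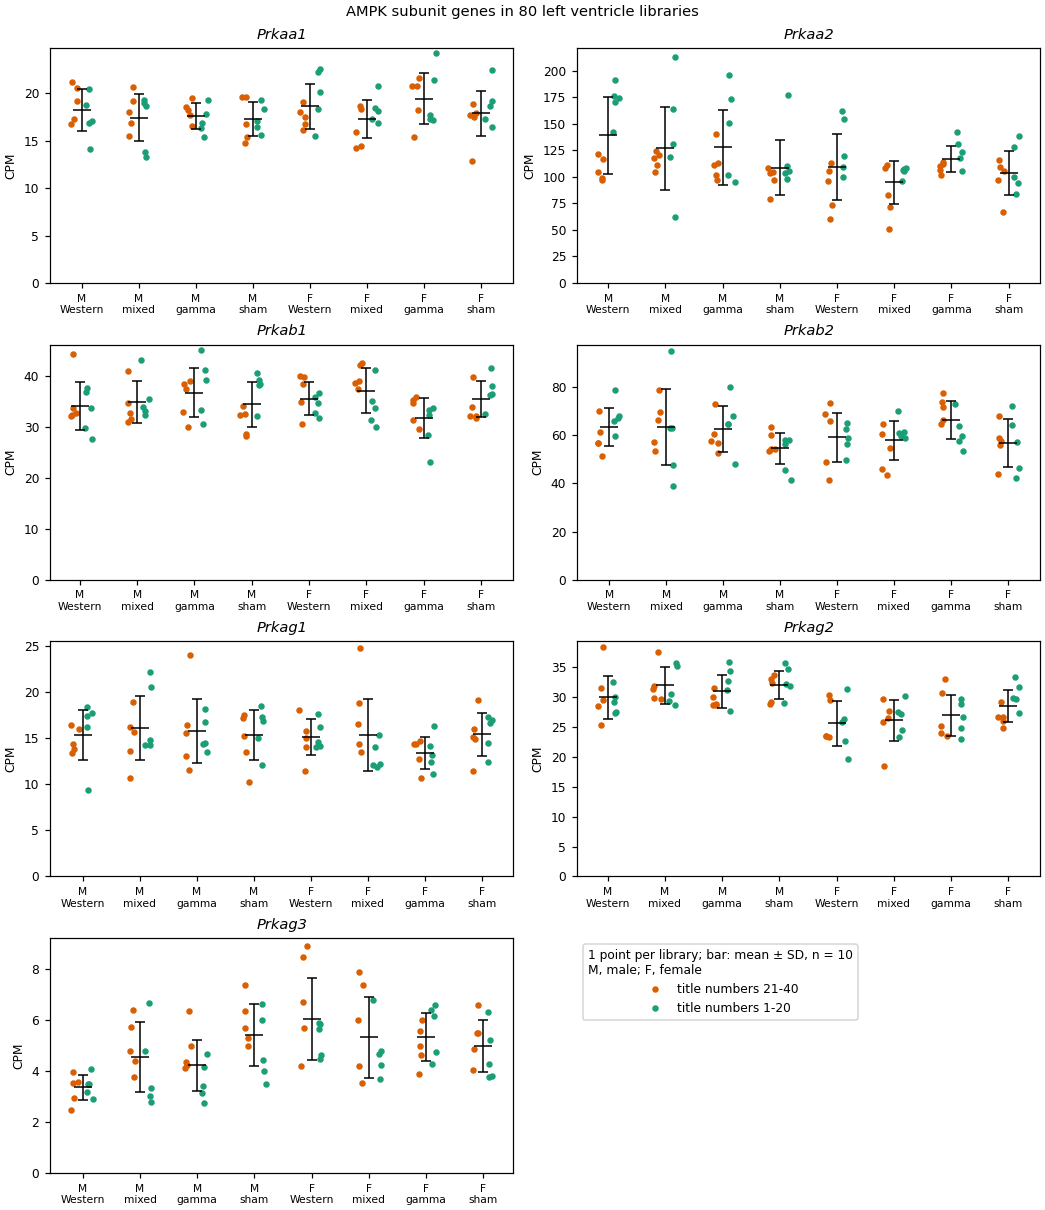
Level of each AMPK subunit gene (vertical axis, CPM) in each of the 80 libraries, by group; points are libraries, coloured by title numbers, and bars are the mean ± SD of 10 libraries. Prkag3 in male Western libraries lies between 2.46 and 4.08 CPM, and the highest male library for Prkaa2 has 141 CPM among title numbers 21-40 and 214 CPM among 1-20.

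Levels of different genes can be compared only per length. Divided by the length of all annotated exons, the order was Prkaa2 (13.9 ± 3.72 CPM per kb), Prkab1 (11.4 ± 1.40), Prkab2 (5.55 ± 0.929), Prkag1 (3.92 ± 0.731), Prkaa1 (3.38 ± 0.417), Prkag2 (2.51 ± 0.337) and Prkag3 (0.756 ± 0.215 CPM per kb). Prkaa2 and Prkab1 differed by less than the spread of Prkaa2, and so did Prkag1 and Prkaa1 relative to that of Prkag1. By this length Prkaa2 gave 79.8% ± 3.69 (SD, n = 80 libraries) of the alpha signal and 69.4% at the lowest. Prkab1 gave 67.3% ± 5.08 of the beta signal, although Prkab2 had the higher CPM, because its annotated exons span 10900 bp against 3066 bp for Prkab1. Prkag1 gave 54.2% ± 5.17, Prkag2 35.2% ± 4.94 and Prkag3 10.6% ± 2.998 of the gamma signal. With the longest annotated transcript in place of all exons, the shares were 79.3% for Prkaa2 and 74.0% for Prkab1. This length is 2117 bp for Prkab1 and 10447 bp for Prkab2, so it could only raise the share of Prkab1. It therefore cannot test whether Prkab1 leads, and shorter forms of Prkab2 were not tried. By this length Prkab1 (16.6 ± 2.03 CPM per kb) stood above Prkaa2 (14.2 ± 3.78), and Prkag2 moved from rank 6 to rank 3 of the 7 genes. The gamma subunits changed places, with 42.2% ± 5.25 for Prkag1 and 50.8% ± 5.53 for Prkag2, since the length of Prkag2 is 11557 bp by exons and 4147 bp by transcript. Prkag3 was lowest by both lengths, with 6.99% ± 2.08 of the gamma signal by the second.

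**Figure D2:**
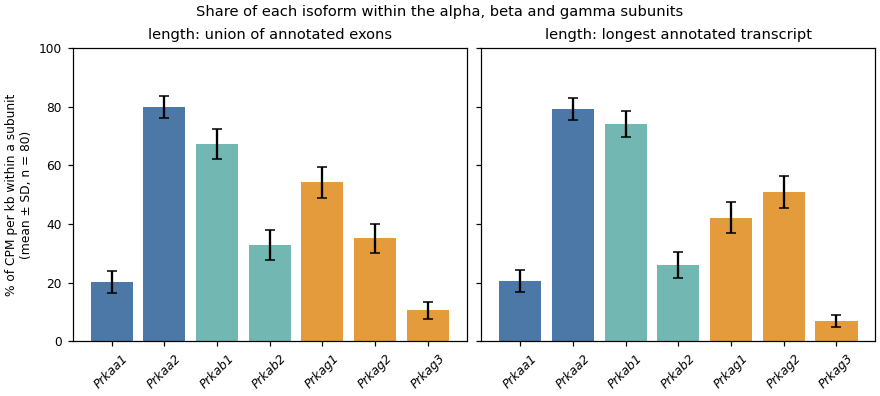
Share of each isoform gene in the summed CPM per kb of its subunit (vertical axis, percent), with gene length taken as all annotated exons (left) or the longest transcript (right); bars are means and error bars SD over 80 libraries. Prkaa2 and Prkab1 lead their subunits in both panels, and the order of Prkag1 (54.2% and 42.2%) and Prkag2 (35.2% and 50.8%) depends on the length used. The right panel cannot test the lead of Prkab1, since its length could only raise that share.

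The effect of the Western diet was read from unirradiated libraries of each sex. In males the gamma3 subunit gene Prkag3 was the single subunit gene that passed the test at an adjusted p under 0.05, and it was lower. It had 2.46 CPM at the lowest, 3.49 at the median and 4.08 at the highest of 10 male Western libraries, against 3.48, 5.48 and 7.37 CPM in male sham libraries. All 10 male Western libraries lay below the sham median and 4 lay below the lowest sham library, though the ranges overlapped. The means were 3.36 ± 0.493 CPM in male Western and 5.42 ± 1.22 CPM in male sham libraries (SD, n = 10 each), a log2 change of -0.69 ± 0.16 (SE; 95% interval -0.99 to -0.38; edgeR quasi-likelihood test, adjusted p = 0.0199). Of all genes tested 0.397% were called in this comparison, that is, had an adjusted p under 0.05. In bulk tissue, fewer cells that make a transcript and less of it per cell cannot be told apart.

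In females Prkag3 had 4.18, 5.75 and 8.90 CPM at the lowest, median and highest of the Western libraries, against 3.77, 5.04 and 6.60 CPM in sham libraries. The ranges overlapped widely, and 7 of 10 female Western libraries lay above the sham median. The log2 change was 0.28 ± 0.15 (95% interval -0.02 to 0.57, adjusted p = 0.708). The difference between the sexes in the effect of the diet was itself tested. It was -0.96 ± 0.22 on the log2 scale for males minus females (95% interval -1.39 to -0.54, edgeR adjusted p = 0.0146), in a contrast in which 0.447% of all genes were called. The other 6 subunit genes had differences from -0.02 to 0.29 there, with adjusted p values of at least 0.741. Across the 8 group means Prkag3 was highest in female Western libraries (6.04 ± 1.59 CPM) and lowest in male Western libraries, and the step between male gamma (4.22 ± 1.01 CPM) and male Western was the only 1 of 49 neighbouring steps over the 7 genes that exceeded the smaller SD of its pair.

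Within the libraries with title numbers 21-40, Prkag3 had 2.46, 2.96, 3.52, 3.58 and 3.95 CPM in male Western libraries, against 4.99, 5.29, 5.67, 6.36 and 7.37 CPM in male sham libraries. These 5 and 5 libraries did not overlap, and the log2 change was -0.85 ± 0.21 (edgeR fit of that run alone, adjusted p = 0.175). That fit called 0 of 15840 genes, and how many other genes separate in this way was not counted. Within title numbers 1-20 the values were 2.89, 3.19, 3.48, 3.50 and 4.08 CPM in male Western libraries, against 3.48, 3.995, 4.43, 6.00 and 6.61 CPM in male sham libraries. Here the groups overlapped, and the log2 change was -0.50 ± 0.21 (edgeR, adjusted p = 0.161), in a fit that called 467 of 15987 genes. The direction was shared by both runs, and in neither alone did the gene pass the test. The difference between the sexes was -1.20 ± 0.28 within title numbers 21-40 (edgeR, adjusted p = 0.0691) and -0.68 ± 0.30 within 1-20 (adjusted p = 0.470).

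**Figure D3:**
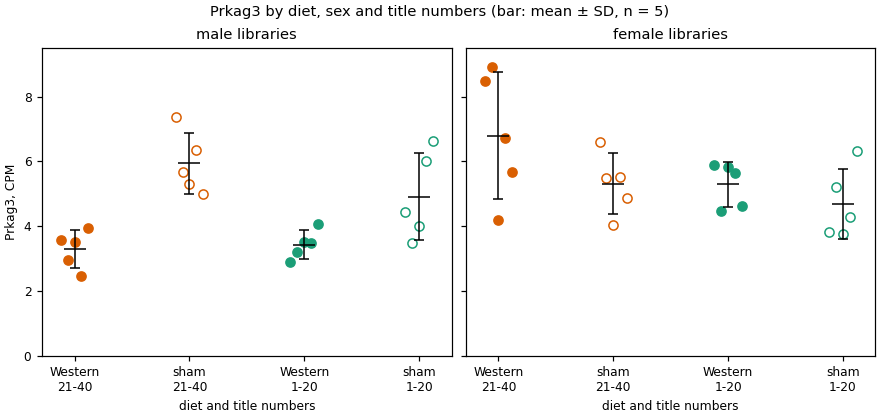
Prkag3 (vertical axis, CPM) in Western (filled) and sham (open) libraries by sex and title numbers; points are libraries and bars the mean ± SD of 5. Male Western libraries of title numbers 21-40 (2.46 to 3.95 CPM) lie below all male sham libraries of that run (4.99 to 7.37 CPM), while the female groups overlap. How many other genes separate in this way was not counted.

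The call in males rested on few libraries: the adjusted p was 0.0502 without male sham replicate 4, 0.0553 without male sham replicate 9 and 0.0507 without male Western replicate 4, and it stayed between 0.0170 and 0.0489 without any of the other 17 libraries. The difference between the sexes stayed called without any single library, with adjusted p values from 0.00652 to 0.0397. Male Western libraries of title numbers 1-20 had 0.178 to 0.419% of their counts on Rn18s-rs5, against 0.293 to 1.95% in male sham libraries of that run. With this share and the run as terms the log2 change of Prkag3 was -0.58 ± 0.16 (edgeR, adjusted p = 0.132) in males and -0.85 ± 0.21 (adjusted p = 0.0330) for males minus females. Without the 20 libraries over 10 CPM of Myl7 it was -0.76 ± 0.23 (adjusted p = 0.733) in males, with 4 sham libraries left. Over all 80 libraries Prkag3 and the Rn18s-rs5 share, on log2 values, had a Pearson r of 0.20 (permutation p = 0.074, adjusted over 7 genes 0.26) and a Spearman rho of 0.22 (permutation p = 0.047, adjusted 0.14), and r was 0.20 without the 2 farthest libraries. Within runs r was 0.28 in males and 0.81 in females with numbers 21-40, and 0.55 in males and -0.19 in females with 1-20. Cyp27a1, which shares exonic bases with Prkag3, averaged 25.7 ± 6.93 CPM in male Western and 26.5 ± 5.01 CPM in male sham libraries. Over all 80 libraries Prkag3 and Cyp27a1 had r = 0.23 (permutation p = 0.043) and rho = 0.18 (permutation p = 0.10), with r = 0.26 without the 2 farthest libraries. Within runs r was -0.20 in males and 0.28 in females with numbers 21-40, and 0.19 in males and 0.18 in females with 1-20.

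Since gamma3 is known from skeletal muscle, 15 genes that mark that tissue were listed beside Prkag3. Their summed level was 1712 to 2386 CPM in male Western and 1707 to 2693 CPM in male sham libraries, most of it from Eno3, Ckm and Acta1, which heart muscle also makes. The fast myosins Myh1, Myh2 and Myh4 had no count in 59, 52 and 74 of the 80 libraries, and the fast troponin gene Tnnc2 in 73. Of the 8 markers tested 0 were called for the Western diet in males and 0 had a log2 change above 0. Their median log2 change was -0.15, against -0.01 over all genes. Their part in the change of Prkag3 was not tested.

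The other subunit genes did not pass the test for the Western diet. The alpha2 gene Prkaa2 had 96.8, 132 and 192 CPM at the lowest, median and highest of the male Western libraries, against 78.9, 104 and 177 CPM in male sham libraries. Its ranges overlapped, with 8 of 10 male Western libraries above the sham median, and the log2 change was 0.36 ± 0.15 (95% interval 0.06 to 0.66, edgeR adjusted p = 0.302). By title numbers 1-20 it had 143, 171, 175, 176 and 192 CPM in male Western libraries, against 98.5, 103, 106, 110 and 177 CPM in male sham libraries. By title numbers 21-40 it had 96.8, 99.0, 105, 117 and 121 CPM, against 78.9, 97.4, 104, 104 and 108 CPM. In numbers 1-20 all Western libraries lay above all sham libraries but replicate 5, and in 21-40 the groups overlapped. With the Rn18s-rs5 share and the run as terms the log2 change was 0.12 ± 0.12 (edgeR, adjusted p = 0.882). The beta2 gene Prkab2, which pairs with alpha2 in muscle, averaged 63.5 ± 7.96 CPM in male Western and 54.5 ± 6.53 CPM in male sham libraries, with 9 of 10 libraries above the sham median and a log2 change of 0.22 ± 0.10 (adjusted p = 0.355). The remaining 4 genes had log2 changes from -0.10 to 0.08 in males, with adjusted p values from 0.618 to 0.999. In females the 6 genes other than Prkag3 had log2 changes from -0.15 (Prkag2) to 0.07 (Prkaa2), with adjusted p values of at least 0.653, where 0.0189% of all genes were called.

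**Figure D4:**
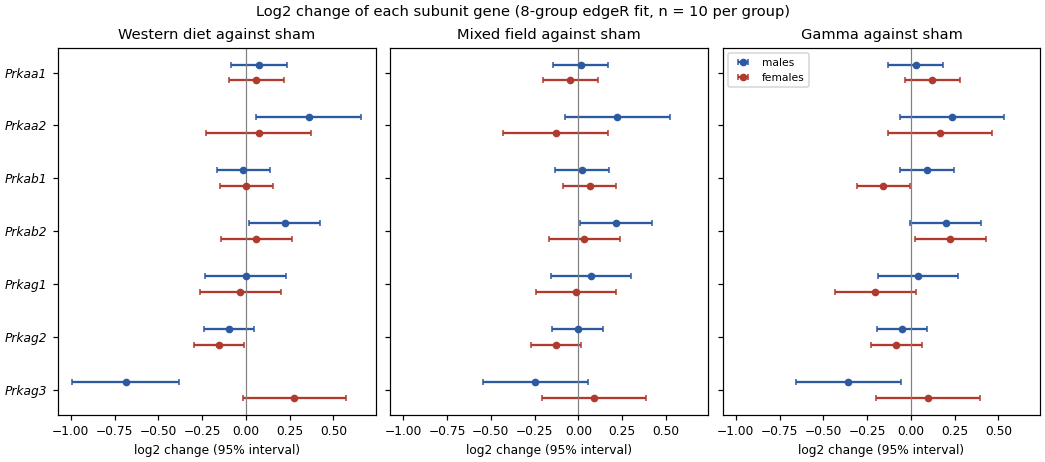
Log2 change with its 95% interval (horizontal axis) of each subunit gene for Western, mixed field and gamma libraries against sham libraries of the same sex. Prkag3 in Western males, at -0.69 (-0.99 to -0.38), is the gene that passed the test after adjustment over 15879 genes; in the panels for the mixed field and gamma radiation no gene passed.

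The mixed field and gamma radiation were each compared with sham libraries on the same diet. No subunit gene was called for either, in either sex. In males 0.0693% of all genes were called for the mixed field and 0.176% for gamma, and in females edgeR called 0 genes for both, with 1027 and 1643 genes at an unadjusted p under 0.05. By DESeq2 the counts in females were 0 for the mixed field and 3 for gamma, and limma voom gave 0 for both. Over all alternatives the counts in females ran to 39 for the mixed field (title numbers 1-20 alone) and 9 for gamma (Rn18s-rs5 share and run terms). In males they ran from 0 to 25 for the mixed field and from 0 to 45 for gamma. DESeq2 called none of the 7 genes in these 4 comparisons. Prkaa2 averaged 127 ± 39.5 CPM in male mixed field and 128 ± 35.5 CPM in male gamma libraries, against 109 ± 25.6 CPM in male sham libraries, with log2 changes of 0.22 ± 0.15 (adjusted p = 0.745) and 0.24 ± 0.15 (adjusted p = 0.971). In females it averaged 94.97 ± 20.3 CPM in mixed field and 117 ± 12.5 CPM in gamma libraries, against 104 ± 20.7 CPM in sham libraries, with log2 changes of -0.13 ± 0.15 (adjusted p = 0.907) and 0.17 ± 0.15 (adjusted p = 0.686). Prkaa1 had log2 changes from -0.05 to 0.12 over the 4 comparisons.

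Of the scaffold genes, Prkab2 was nominally higher in all 4 comparisons without passing the test. It averaged 63.3 ± 15.8 CPM in male mixed field and 62.6 ± 9.51 CPM in male gamma libraries, against 54.5 ± 6.53 CPM in the male sham libraries that both male comparisons share. In females it averaged 58.0 ± 8.07 CPM in mixed field and 66.2 ± 7.84 CPM in gamma libraries, against 56.7 ± 9.998 CPM in sham libraries. For gamma radiation as the mean of the sexes its log2 change was 0.21 ± 0.07 (95% interval 0.07 to 0.36, unadjusted p = 0.00496, edgeR adjusted p = 0.322), in a contrast where edgeR, DESeq2 and limma voom called 0 genes and 1732 had an unadjusted p under 0.05. With title numbers 1-20 alone 7 genes were called in this contrast. Prkab1 in females averaged 31.8 ± 3.92 CPM in gamma and 35.5 ± 3.51 CPM in sham libraries, a log2 change of -0.16 ± 0.08 (adjusted p = 0.477), and in the other 3 comparisons its log2 change was 0.02 to 0.09. The share of Prkab2 in the beta signal per exon length was 36.95% ± 2.10 in female gamma libraries, against 30.96% ± 4.91 in female sham libraries, and no test was run on this share.

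Among the gamma subunit genes Prkag3 averaged 4.57 ± 1.37 CPM in male mixed field and 4.22 ± 1.01 CPM in male gamma libraries, against 5.42 ± 1.22 CPM in male sham libraries. The log2 changes were -0.25 ± 0.15 (95% interval -0.55 to 0.05, adjusted p = 0.706) and -0.36 ± 0.15 (-0.66 to -0.06, adjusted p = 0.803), and 9 of 10 male gamma libraries lay below the sham median. In females the group means were 5.32 ± 1.58 CPM in mixed field and 5.33 ± 0.952 CPM in gamma libraries, against 4.99 ± 1.01 CPM in sham libraries. The differences between the sexes in these effects were -0.33 ± 0.21 (adjusted p = 0.657) and -0.45 ± 0.21 (adjusted p = 0.897), in contrasts where edgeR called 0.0315% and 0% of all genes. In the second, DESeq2 called 2 genes, limma voom 0, and 854 genes reached an unadjusted p below 0.05. The other 6 subunit genes had differences between the sexes from -0.05 to 0.35 for the mixed field and from -0.09 to 0.25 for gamma, with adjusted p values of at least 0.636 and 0.833. Prkag1 in females averaged 13.4 ± 1.73 CPM in gamma and 15.5 ± 2.33 CPM in sham libraries, a log2 change of -0.20 ± 0.12 (adjusted p = 0.520), and in the other 3 comparisons its log2 change was -0.01 to 0.07. Prkag2 had negative log2 changes in all 4 comparisons, the furthest from 0 being -0.13 for the mixed field in females. When the mixed field was set against gamma directly no subunit gene was called, with 0.573% of all genes called in males and 0.0252% in females. The smallest p there was that of Prkab1 in females, which averaged 37.2 ± 4.45 CPM in mixed field and 31.8 ± 3.92 CPM in gamma libraries (log2 change 0.22 ± 0.08, adjusted p = 0.216). The other 6 genes had log2 changes from -0.30 (Prkaa2) to 0.19 (Prkag1) in females, with adjusted p values of at least 0.338, and the 7 genes had -0.07 to 0.11 in males, with adjusted p values of at least 0.863.

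Males and females were compared as the mean over the 4 conditions, and 3 of the 7 subunit genes differed, where 23.3% of all genes were called. The clearest was Prkag2, the gamma2 gene linked to human cardiomyopathy, which was higher in males. It had 25.3, 30.9 and 38.4 CPM at the lowest, median and highest of 40 male libraries, against 18.5, 26.7 and 33.4 CPM in 40 female libraries. The ranges overlapped, yet 39 of 40 male libraries lay above the female median and 9 lay above the highest female library. The log2 difference was 0.22 ± 0.04 (95% interval 0.15 to 0.29, edgeR adjusted p = 4.55e-06), and it passed the test within title numbers 21-40 (0.23 ± 0.06, adjusted p = 0.00256) and within 1-20 (0.22 ± 0.05, adjusted p = 0.000636). All 4 male group means (30.01 to 32.1 CPM) exceeded all 4 female group means (25.6 to 28.6 CPM). Among sham libraries alone the difference was 0.17 ± 0.07 (adjusted p = 0.326), with all 10 male libraries above the female median, where 1.2% of all genes were called.

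Prkag3 differed the other way. It had 2.46, 4.14 and 7.37 CPM at the lowest, median and highest of the male libraries, against 3.55, 5.34 and 8.90 CPM in female libraries. The ranges overlapped, and 31 of 40 male libraries lay below the female median. The log2 difference was -0.32 ± 0.08 (edgeR adjusted p = 0.00139). Among sham libraries alone it was 0.12 ± 0.15 (adjusted p = 0.829), and the Western groups described above are part of the mean over conditions. Prkaa2 had 62.2, 112 and 214 CPM at the lowest, median and highest of the male libraries, against 50.8, 107 and 163 CPM in female libraries. The medians lay close, and 9 male libraries exceeded the highest female library. The log2 difference was 0.24 ± 0.08 (adjusted p = 0.0148), 0.19 ± 0.08 within title numbers 21-40 (adjusted p = 0.0834) and 0.29 ± 0.10 within 1-20 (adjusted p = 0.0254).

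The summed level of 10 atrial markers was 78.6 to 2352 CPM over the male groups and 75.3 to 111 CPM over the female groups, and all 10 were called higher in males. Without the 20 libraries over 10 CPM of Myl7, the male minus female log2 difference was 0.19 ± 0.05 for Prkag2 (edgeR adjusted p = 0.00537), -0.23 ± 0.09 for Prkag3 (adjusted p = 0.113) and 0.09 ± 0.09 for Prkaa2 (adjusted p = 0.557). The call on Prkag2 stayed, and those on Prkag3 and Prkaa2 did not. Of the males with title numbers 1-20 only mixed field libraries were left, while all female libraries stayed. This contrast therefore mixes sex with run and rests on fewer male libraries, so it cannot single out the part of atrial transcripts. Other markers also moved with sex. Of 4 tested adipocyte genes 3 were called higher in males and 1, Plin4, lower (-0.26), and their summed level, most of it Plin4, had group medians of 209 to 243 CPM in males and 237 to 283 CPM in females. Of nerve and Schwann genes 3 of 4 tested were called higher in males, with summed medians of 10.4 to 12.1 CPM in males and 9.93 to 11.1 CPM in females. Of smooth muscle genes 4 of 5 tested were called higher, with summed medians of 404 to 468 CPM in males and 372 to 422 CPM in females. Of all 15879 genes 23.3% were called between the sexes, 1870 higher and 1826 lower in males. The part of these markers was not tested. The remaining subunit genes had differences from -0.05 (Prkaa1) to 0.08 (Prkag1), with adjusted p values of at least 0.338.

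Libraries with title numbers 21-40 were also set against those with 1-20, in a fit with a mean for each group and run. Prkaa2 was lower in the later numbers in both sexes. In males it had 78.9, 107 and 141 CPM at the lowest, median and highest of 20 libraries with numbers 21-40, against 62.2, 147 and 214 CPM in 20 libraries with numbers 1-20. All 20 lay below the median of the earlier numbers, and the log2 difference was -0.39 ± 0.09 (edgeR adjusted p = 0.00102), where 29.8% of all genes were called. In females it had 50.8, 106 and 116 CPM with numbers 21-40, against 83.8, 109 and 163 CPM with numbers 1-20. The ranges overlapped, with 6 of 20 below the lowest library of the earlier numbers, and the difference was -0.29 ± 0.09 (adjusted p = 0.0187), where 24% of all genes were called. As the mean of the sexes Prkaa2 (-0.34 ± 0.07, adjusted p = 6.41e-05) and Prkag3 (0.19 ± 0.07, adjusted p = 0.0383) were the 2 of 7 genes called, with 30.7% of all genes called. Cyp27a1 moved the same way, with 29.3 ± 3.69 CPM in male libraries with numbers 21-40 and 23.5 ± 7.04 CPM with 1-20, and 28.6 ± 3.48 CPM in female libraries with numbers 21-40 and 23.8 ± 2.28 CPM with 1-20. Its part in the counts of Prkag3 was not tested. The call on Prkag3 ended without any of 26 single libraries, with a highest adjusted p of 0.0840 without female mixed field replicate 10. Among cell markers 6 of 8 fibroblast genes and 3 of 4 tested adipocyte genes were lower, and 4 of 8 endothelial genes higher, in numbers 21-40, and their part was not tested. For the difference between the sexes no subunit gene was called, with 26.9% of all genes called, and Prkaa1 (0.20 ± 0.08, adjusted p = 0.0582) and Prkab1 (-0.17 ± 0.07, adjusted p = 0.0709) were nearest. The genes not named for these runs had log2 differences from -0.09 to 0.07 in males, -0.12 to 0.09 in females and -0.03 or nearer to 0 as the mean, and Prkag3 had 0.23 ± 0.11 in males (adjusted p = 0.0939) and 0.16 ± 0.10 in females (adjusted p = 0.279).

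The share of Rn18s-rs5 moved with these runs in opposite directions in the sexes: its median was 1.65% in male libraries with numbers 21-40 and 0.351% with 1-20, and 0.484% in female libraries with numbers 21-40 and 3.57% with 1-20. Prkaa2 and this share, as log2 values over 80 libraries, had a Pearson r of -0.30 (permutation p = 0.0064, adjusted over 7 genes 0.045) and a Spearman rho of -0.28 (permutation p = 0.012, adjusted 0.082). Without the 2 libraries farthest from the median share r was -0.26. Within runs r was -0.06 in males and -0.76 in females with numbers 21-40, and -0.80 in males and -0.11 in females with 1-20 (20 libraries each), so the pooled relation held in 2 of the 4 sets. With the share and the run as terms the male minus female difference of Prkaa2 was 0.22 ± 0.06 (edgeR adjusted p = 0.00205). The share was centred within each sex, so this fit does not take out a difference in share between the sexes.

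**Figure D5:**
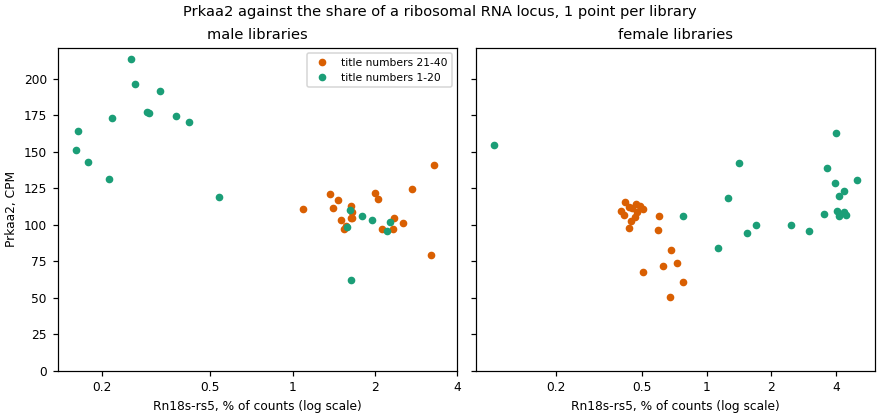
Prkaa2 (vertical axis, CPM) against the share of counts on Rn18s-rs5 (horizontal axis, percent, log scale) in male and female libraries, 1 point per library, coloured by title numbers. Male libraries with numbers 1-20 and a low share hold the highest Prkaa2 values, up to 214 CPM, and female libraries with numbers 21-40 fall as low as 50.8 CPM.

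Across the 80 libraries 21 pairs of subunit genes were compared on log2 values, with p values from 100000 permutations, two-sided, and adjusted over the 21 pairs. Here, and for Rn18s-rs5 and Cyp27a1 above, libraries were permuted freely over groups, sexes and runs. These p values therefore also reflect differences between whole groups, sexes or runs. The pairs of smallest Pearson p are given below, and others passed too. Among them were Prkaa1 with Prkaa2 (r = 0.39, permutation p = 0.00052, adjusted 0.0018, 0.36 to 0.72 within the 4 sets) and Prkab1 with Prkag1 (r = 0.34, permutation p = 0.0023, adjusted 0.006, 0.18 to 0.57). Prkag2 with Prkag3 (r = -0.37, permutation p = 0.00081, adjusted 0.0024) did not hold within all sets (-0.51 to 0.02). The alpha2 and beta2 genes Prkaa2 and Prkab2 varied together, with a Pearson r of 0.64 (permutation p = 1e-05, the smallest that these permutations can give; adjusted 4.2e-05) and a Spearman rho of 0.53 (permutation p = 1e-05, adjusted 7e-05). Without the 2 libraries farthest from the median of Prkab2 r was 0.58. Within runs it was 0.53 in males and 0.83 in females with numbers 21-40, and 0.79 in males and 0.55 in females with 1-20. Prkaa1 and Prkab2 also varied together (r = 0.51, permutation p = 1e-05, adjusted 4.2e-05; rho = 0.49, permutation p = 3e-05, adjusted 0.00016; 0.49 without the 2 farthest libraries), with 0.42 to 0.73 within the 4 sets. The gamma1 gene Prkag1 went against both: with Prkab2 r was -0.49 (permutation p = 1e-05, adjusted 4.2e-05; rho = -0.50, permutation p = 1e-05, adjusted 7e-05; -0.46 without the 2 farthest), and -0.74 to -0.34 within the 4 sets. With Prkaa1 r was -0.51 (permutation p = 1e-05, adjusted 4.2e-05; rho = -0.54, permutation p = 1e-05, adjusted 7e-05; -0.51 without the 2 farthest), and -0.63 to -0.27 within the 4 sets. Prkaa2 and Prkag3 had r = -0.47 pooled (permutation p = 1e-05, adjusted 4.2e-05; rho = -0.37, permutation p = 0.00087, adjusted 0.0028; -0.45 without the 2 farthest), but from -0.73 to 0.31 within the sets, so that relation did not hold within all runs.

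A search over 12422 genes, each averaging 1 CPM or more, ranked those whose log2 CPM was most like that of each subunit gene over the 80 libraries by Spearman's rho. Prkaa2 was most like Hipk3 (0.895), Usp9x (0.885) and Pafah1b1 (0.870), whose longest transcripts are 8049, 12523 and 8570 bp, beside 8196 bp for Prkaa2. Prkab2, with 10447 bp, was most like Setd7 (0.83, 7411 bp), Crim1 (0.73, 6071 bp) and Trappc10 (0.73, 6152 bp). Prkaa1 was most like Rdx, Pias1 and Brox (0.67 each). Prkag1, with 2610 bp, was most like Atp5me (0.80, 563 bp), Edf1 (0.80, 2164 bp) and Rpl36 (0.79, 2043 bp). These encode a subunit of ATP synthase, a transcription coactivator and a ribosomal protein. The median longest transcript of protein-coding genes is 3639 bp, and a part of length in the likeness was not tested. For Prkab1 (Selenbp1, 0.62), Prkag2 (Dstn, 0.60) and Prkag3 (Rbm28, 0.60) the closest genes were less alike. Depth, run and sex are shared by these genes, and the values are a description. Prkaa2 and Prkab2 were less like one another (rho = 0.53) than like the genes named for them. A link between subunit genes was not tested.

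Other genes of the pathway were read from 5 lists. For the Western diet in males none of 8 upstream kinases and adaptors, 9 regulators, 21 substrates, 13 related kinases and 11 tested genes of the adenylate and creatine buffer was called, against 0.397% of all genes, and the median log2 changes of the lists ran from -0.04 to 0.10, against -0.01 over all genes. The nearest was the substrate Acaca, the cytosolic acetyl-CoA carboxylase that AMPK inhibits, with 0.47 ± 0.12 (edgeR adjusted p = 0.0540). The sestrin Sesn3, which activates AMPK, had 0.39 ± 0.14 (adjusted p = 0.210), and Ampd2, an AMP deaminase, -0.39 ± 0.16 (adjusted p = 0.278). The smallest p of the upstream list was that of the adaptor Stradb (-0.11 ± 0.06, adjusted p = 0.412), and of the related kinases that of Mark2 (-0.17 ± 0.07, adjusted p = 0.249). In the Western effect for males minus females 1 gene of these lists was called, where 0.447% of all genes were called. It was the substrate Eef2k, a kinase that slows translation elongation (0.46 ± 0.10, edgeR adjusted p = 0.00749). Eef2k was not called for the diet in males. For the mixed field and gamma against sham no gene of the 5 lists was called in either sex, the nearest being the substrate Foxo3 in mixed field males (0.52 ± 0.13, adjusted p = 0.0879). Between mixed field and gamma males the sterol regulator Srebf2 was lower in the mixed field (-0.32 ± 0.08, adjusted p = 0.0271), where 0.573% of all genes were called.

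Between the sexes, as the mean over conditions, 3 of 21 substrates were higher and 1 lower in males, and in each other list at most 1 was higher and 2 were lower. Of all genes 23.3% were called, and no difference between the lists and other genes was tested. Among the substrates Tbc1d1, a regulator of glucose transporter traffic, was higher in males (0.30 ± 0.07, adjusted p = 0.00168), as were Eef2k (0.11 ± 0.03) and the mTORC1 scaffold Rptor (0.10 ± 0.04). The heart phosphofructokinase-2 gene Pfkfb2 was lower (-0.25 ± 0.09, adjusted p = 0.0364). Of the other lists Mark4 (0.15 ± 0.04) and Ppp2ca (0.11 ± 0.03) were higher, and Nuak2 (-0.30 ± 0.08), Snrk (-0.18 ± 0.05), Sesn1 (-0.15 ± 0.04), Strada (-0.15 ± 0.05) and Ampd3 (-0.13 ± 0.04) were lower. By title numbers, as the mean of the sexes, 5 of 21 substrates were higher and 3 lower in numbers 21-40, with 30.7% of all genes called. The substrates of smallest p were Crtc2 (0.27 ± 0.04, adjusted p = 6.78e-07), Pfkfb2 (0.39 ± 0.07), Tsc2 (0.20 ± 0.04) and Acaca (-0.23 ± 0.05). The buffer list had 2 of 11 genes higher and 7 lower (median -0.09, against 0.01 over all genes). Among them Ampd2 (0.30 ± 0.07) and the brain-type creatine kinase Ckb (0.21 ± 0.05) were higher, and the mitochondrial creatine kinase Ckmt2 (-0.12 ± 0.03) and the adenosine kinase Adk (-0.15 ± 0.04) were lower. Of 8 upstream genes 2 were higher, Strada (0.21 ± 0.04) and Camkk1 (0.28 ± 0.10), and 2 lower, Cab39 (-0.10 ± 0.04) and Cab39l (-0.08 ± 0.03). Of 9 regulators Flcn was higher (0.13 ± 0.04), and Sesn3 (-0.32 ± 0.06, adjusted p = 2.05e-05) and Ppp2ca (-0.10 ± 0.03) were lower. Of 13 related kinases Nuak2 (0.21 ± 0.07) and Snrk (0.12 ± 0.05) were higher and Brsk2 (-0.50 ± 0.18) was lower.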

How the data were processed

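Column-purified RNA was selected by poly-A and made into libraries with the NEBNext Ultra II kit, per the labels' protocols. The submitters' processing notes name STAR 2.7.8a, FastQC 0.11.9 and GRCm39 (mm39). The sources used here do not name the counting program, strand setting or annotation. The authors deposited raw counts, whole numbers per Ensembl gene. Symbols and coordinates came from GENCODE vM39, which matched 56323 of 56941 genes.

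Counts were scaled by TMM, genes with low counts were removed with filterByExpr on the 8 groups (15879 left), and the quasi-likelihood test of edgeR 4.0.16 (in R 4.3.3) was fitted with 1 mean per group, or per group and run for title numbers. Benjamini-Hochberg adjustment ran over all 15879 genes, with a threshold of 0.05. The common dispersion was 0.0415. SE is the log2 change divided by the square root of F. The test was tried on simulated counts, which lacked the differences in run, Rn18s-rs5 share and Myl7 seen here. The simulation therefore cannot show how the test behaves with such differences. The alternatives were DESeq2 1.42.0, limma voom 3.58.1, RLE scaling, no filter, each run alone, and run and Rn18s-rs5 terms. Others left out the libraries over 10 CPM of Myl7, used only the groups compared, added a replicate block or left out each library in turn. Female gamma replicates 8 and 9 were the closest library pair of a group, with a chi-square per degree of freedom of 1.62. The closest pairs of the other groups had 4.11 (male sham) to 13.3 (male mixed field). No library was taken as a copy. The check cannot tell whether 2 libraries came from the same animal, since the labels do not say which animal each came from.

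The rule named all 7 subunit genes, by value or range, and of each other list up to 4 called genes of smallest p, or the gene of smallest p where none was called. Of the lists, the text prints the Western diet in males, the comparisons with a call, and the gene nearest a call under radiation. By title numbers it prints the mean of the sexes alone. Subunit genes in the effects averaged over the sexes, where none was called, are printed for gamma on Prkab2 alone. The subunit genes and lists were chosen with earlier results of these data known.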

Additional observations from a re-analysis of the deposited data

Results flagged for a closer look

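Prkaa2 in male sham replicate 5 stood apart from its group: it had 177 CPM, and the next highest of the 10 male sham libraries had 110 CPM. The gap was 0.680 of the group's range, above the limit of 0.466 for 10 samples. Of 56 sets of 10 values (7 genes in 8 groups) this was the 1 that stood out, where chance gives about 1 in 20. The library has title numbers 1-20 and 0.293% of its counts on Rn18s-rs5, against 1.58 to 1.95% in male sham replicates 1 to 4. Without it the adjusted p of Prkaa2 for males against females was 0.0280.

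The effect of the Western diet on Prkag3 differed between the sexes, by -0.96 on the log2 scale for males minus females (edgeR adjusted p = 0.0146). In males the Western libraries averaged less Prkag3 than sham libraries in both runs of title numbers, and in females they averaged more.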

How the results depend on the processing

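The number of subunit genes called was compared over 192 pairs of a comparison and an alternative, and 180 stayed within 1.5 times. Pairs with 0 genes called on both sides count among the 180, and most comparisons had 0 called, so this number says little about the calls. For the Western diet in males 1 gene (Prkag3) was called, and 0 with limma voom (adjusted p = 0.0506), with each run of title numbers alone, with the Rn18s-rs5 and run terms, and without the libraries over 10 CPM of Myl7. For the male minus female difference in that effect 1 was called, and 0 in each run alone and without the Myl7 libraries. Between the sexes 3 were called, and 1 (Prkag2) without the Myl7 libraries. For title numbers as the mean of the sexes 2 were called, and 1 without the filter. For their difference between the sexes 0 were called, and 1 (Prkaa1) with DESeq2 and with RLE scaling. Leaving out each library in turn gave 0 to 1 for the Western diet in males, 1 to 2 for title numbers in males, in females and as their mean, and 0 to 2 for the difference. Without any single library no other comparison gained or lost a call. No called change turned its sign. Of 1269 uncalled values 91 did. The replicate block (title number) left 3 genes called between the sexes. No pairing of samples by number was seen. Of 40 same-numbered pairs 8 deviated together (correlation over 0.1, median 0.02), and in none did the male library correlate best with its own number. Differences between the runs stayed in these deviations, so the check cannot decide whether the numbers pair samples.

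The count over all genes for the Western diet in males was 63, and ran from 0 (title numbers 21-40) to 467 (1-20). For females it was 3 and ran to 37, and for the male minus female difference it was 71 and ran from 1 to 154. Without the Myl7 libraries the title numbers could not be compared in males, since no male Western, gamma or sham library with numbers 1-20 was left. Prkag3 had 37 to 147 counts per library, which limits its precision, and the cause of these changes was not tested.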
